A study of Bos taurus with 14 samples.

Results

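The genes described here are 41 cell cycle and DNA replication genes of cattle, read on a custom Agilent bovine microarray in granulocytes and in bovine endometrial stromal cells (BES). They were chosen by symbol, with earlier results of these data known. The symbols were those of cyclins of types A, B, D, E and G, cyclin-dependent kinases (CDKs) and genes named after them, and numbered CDC genes. Added to these were subunits of the MCM helicase, of the origin recognition complex (ORC) and of DNA polymerases alpha, delta and epsilon. Subunits of replication factor C (RFC) and centromere proteins (CENP) completed the set. Each gene had 1 probe, so the set covers 41 of the 15208 non-control probes. Cells of each type were incubated for 2 h with interferon tau (IFNT), by which the ruminant conceptus signals its presence to the mother, or with phosphate-buffered saline (PBS). There were 4 arrays of granulocytes with IFNT, 4 of granulocytes with PBS, 3 of BES with IFNT and 3 of BES with PBS. The dose on the labels, 1 mg/mL IFNT, is unusually large and its unit may be wrong. They describe the granulocyte experiment as in vivo and in vitro and the BES experiment as in vitro, and give no age, sex, breed or pregnancy state of the animals. Nothing in them tells if the replicates are different animals or cultures, so errors and p-values measure the spread between these samples, which may be technical.

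Cells pass through the cycle when cyclins rise and activate their CDKs. D-type cyclins with CDK4 act in G1, E-type cyclins with CDK2 at the start of S phase, cyclin A with CDK2 and then CDK1 through S and G2, and cyclin B with CDK1 at entry to mitosis. In G1 the ORC loads MCM helicases onto replication origins, CDC7 fires them, and polymerases alpha, delta and epsilon then copy the DNA with the clamp that RFC loads. Centromere proteins and the anaphase-promoting complex separate the copies. Mature granulocytes are short-lived blood cells that have left the cycle, whereas endometrial stromal cells divide in culture.

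The probe behind a gene is 60 bases long, and its match decides what is read. The probes of the genes that the results turn on are given here in the order of bases that the scanner files hold, in lower case, with capitals for a stretch of at least 20 bases shared with another probe of the array. Among the 41 member probes, CCNB2 alone had such a stretch, of 40 bases, shared with a probe of a transcribed locus that has no gene name.
CCND3: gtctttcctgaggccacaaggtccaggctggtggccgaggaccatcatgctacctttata
CDC2: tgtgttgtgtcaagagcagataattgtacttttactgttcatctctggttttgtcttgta
CCNA2: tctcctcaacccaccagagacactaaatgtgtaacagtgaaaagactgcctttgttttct
CCNB1: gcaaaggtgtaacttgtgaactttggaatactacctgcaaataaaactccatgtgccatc
CCNB2: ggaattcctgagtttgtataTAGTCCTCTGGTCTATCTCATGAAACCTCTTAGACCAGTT
Unnamed locus: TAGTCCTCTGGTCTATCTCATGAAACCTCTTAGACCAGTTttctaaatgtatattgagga
POLA2: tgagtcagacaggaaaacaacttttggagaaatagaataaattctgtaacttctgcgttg
MCM7: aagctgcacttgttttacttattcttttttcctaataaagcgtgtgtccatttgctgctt
The unnamed locus begins with the bases on which the CCNB2 probe ends, so the probes read overlapping stretches of sequence. The other 6 probes share no stretch of 20 bases with any probe of the array.

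A level below is the log2 of a probe's signal relative to the 75th percentile of its array, so 0 is that percentile itself, and levels of different probes are not comparable. Between 66.4% and 70.9% of probes were well above background on granulocyte arrays, and between 71.6% and 76.1% on BES arrays. Across probes, r was 0.991 to 0.996 within a group, and 0.732 to 0.748 between granulocyte and BES arrays. The cell types were hybridised on separate slides, 1 for each, and what is due to the slide and what to the cell type cannot be told apart. Of 13 interferon-stimulated genes, all 13 rose with IFNT in granulocytes and 11 of the 12 tested rose in BES. All 8 measured neutrophil markers were well above background on every granulocyte array, and 4 of the 8 also on every BES array, but CATHL1, CATHL2 and FCGR3A on none. Their summed linear level was 748.1 to 833 with IFNT and 719 to 920 with PBS in granulocytes, against 0.815 to 0.897 with IFNT and 0.866 to 0.963 with PBS in BES. All 9 measured stromal markers were well above background on every BES array, and 5 of the 9 also on every granulocyte array, but COL1A2, COL3A1 and LUM on none. Their summed level was 25.3 to 27.4 with IFNT and 25.3 to 27.0 with PBS in granulocytes, against 186.4 to 188.1 with IFNT and 180.9 to 183.8 with PBS in BES. Taken singly under PBS, 7 of these 9 markers were lower in granulocytes than in BES and 2 higher. Their median log2 difference was −7.99, so the sum does not stand for each marker. Granulocytes also carried 7 of 8 T and NK cell markers and all 3 B cell markers on every array, at a summed linear level of 3.44 to 3.70 with IFNT and 3.54 to 3.65 with PBS for T and NK cells. BES carried 3 of these 8 and 2 of these 3 on every array, with T and NK cell sums of 0.288 to 0.306 with IFNT and 0.294 to 0.350 with PBS. All 4 measured monocyte markers were well above background on every granulocyte array, and 3 of the 4 also on every BES array. Their summed level in granulocytes was 26.1 to 27.1 with IFNT and 27.9 to 30.5 with PBS. BES, labelled as stromal cells, also carried the epithelial genes KRT8, KRT19 and CDH1, at mean levels of 7.19, 5.95 and 3.50 with PBS, while EPCAM was well above background on no BES array.

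Of the 41 members, 36 were well above background on all 14 arrays and 38 on all 6 BES arrays. CDKN3, a phosphatase that acts on CDKs, was well above background on 2 of 4 granulocyte IFNT arrays and 1 of 4 PBS arrays, and ORC1L (ORC1), the largest ORC subunit, on 1 of 4 in each group. MCM3 was well above background on 1 of 14 arrays, a BES IFNT array, CENP-N on 1, a granulocyte IFNT array, and CENPE, a mitotic kinesin, on none. These last 3 were tested in no comparison, and no difference is given for them. No member spot was saturated or marked as an outlier. Among members well above background on every array of a group, the spread between replicates was small. Their median SD was 0.09 in granulocytes with IFNT, 0.11 in granulocytes with PBS, 0.05 in BES with IFNT and 0.07 in BES with PBS. The widest SD among these members was that of CDC2 in granulocytes with PBS, at 0.51. Dimmer members could spread more, with an SD of 0.73 for MCM3 in BES with PBS and 0.67 for CDKN3 in granulocytes with IFNT.

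Most members differed in level between the cell types without interferon, with 13 of the 38 tested higher in granulocytes than in BES and 21 lower (limma, Benjamini-Hochberg adjusted p under 0.05). This is close to the array as a whole, where 91.4% of 11805 probes passed, 46.7% higher and 44.7% lower, so the number of members that passed is no result about them. The counts by role below rest on few genes each and are read as a description only. The members' median difference was −0.74 on the log2 scale and that of all probes 0.03. At least 2-fold differences were seen for 25 members. Without regard to sign, the median difference was 1.58 for the members and 1.74 for all probes, so differences of that size were common over the array too. The groups did not overlap for 33 of 38 members, against 91.0% of all probes. Cyclin D3 stood at the high end of the members and CDK2AP1 and CDC2 at the low end. In bulk samples fewer cells of a type and less RNA per cell cannot be told apart. The median of all probes itself moved to 0.46 with normexp background correction, to −0.21 with quantile normalization and to −0.12 with median scaling, and differences smaller than these shifts depend on the scaling.

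**Figure D1:**
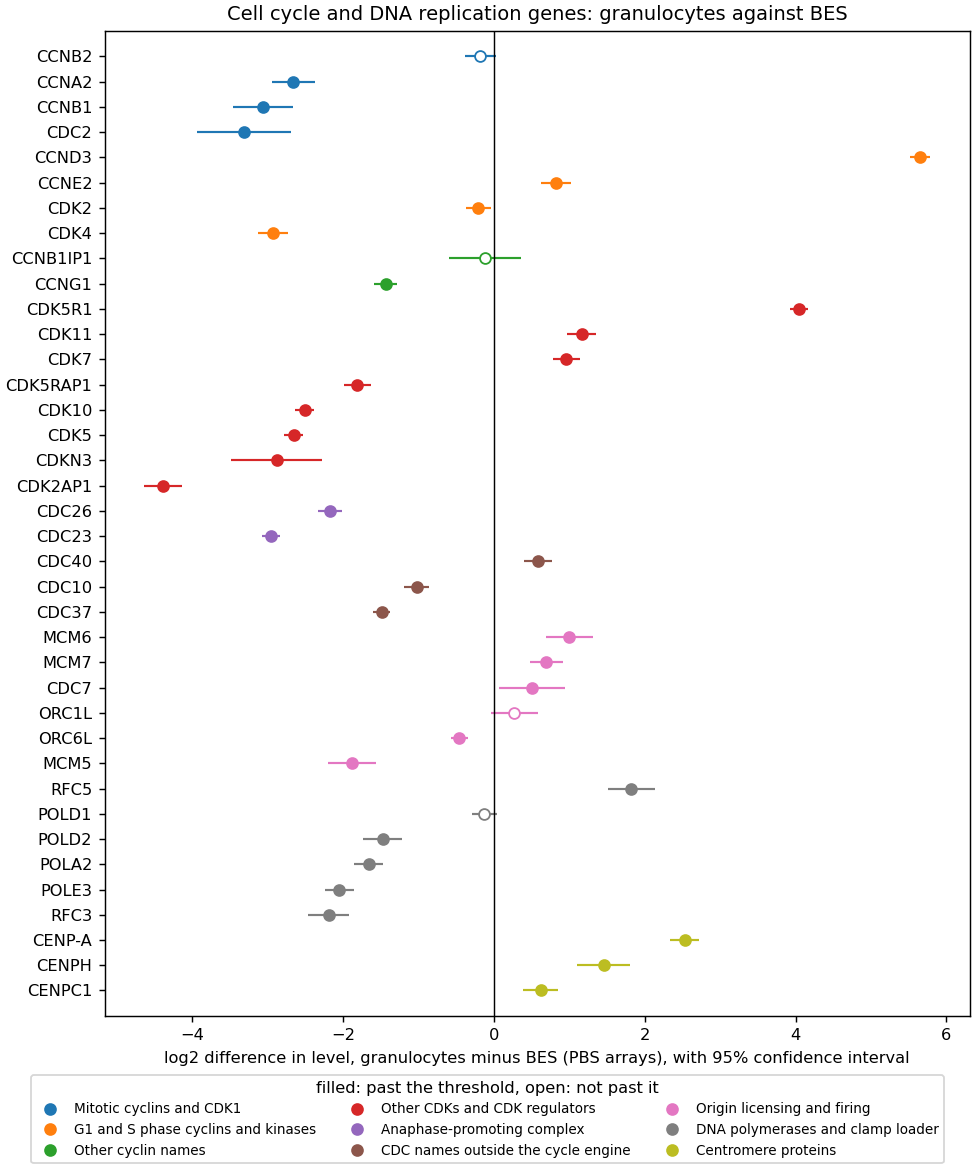
Difference in level between granulocytes and BES on PBS arrays (4 against 3), as log2 on the horizontal axis, for the 38 tested members grouped by role. Points are limma estimates with 95% confidence intervals, filled past the threshold and open otherwise: CCND3 at 5.65 and CDK5R1 at 4.05 lie far to the right, and 21 filled points lie below 0.

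The mitotic cyclins and their kinase were low in granulocytes, with 3 of 4 lower than in BES and CCNB2 not past the threshold. CDC2, the file's name for CDK1, the kinase of mitotic entry, had levels of −4.67, −5.74, −4.74 and −5.35 in granulocytes with PBS, against −1.87, −1.76 and −1.81 in BES with PBS. All granulocyte arrays lay far below all BES arrays, although they also spread more, with an SD of 0.51 against 0.05. The difference was −3.31 ± 0.26 (SE, n = 4 against 3, adjusted p = 8.48e-06), a 9.92-fold lower signal. Cyclin B1 (CCNB1), the activator of CDK1, had −4.78, −4.96, −5.31 and −4.65 in granulocytes against −1.88, −1.66 and −2.03 in BES, which is 8.38-fold lower. Cyclin A2 (CCNA2), which serves S phase and G2, had −4.87, −4.62, −5.02 and −4.57 against −2.14, −2.02 and −2.17, which is 6.32-fold lower. The groups were apart for these 3 genes, and all 3 signals were still well above background on every granulocyte array. With normexp background correction the log2 differences shrank to −1.95 for CDC2, −1.80 for CCNB1 and −1.48 for CCNA2, all past the threshold.

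Cyclin B2 (CCNB2), the sister of cyclin B1, differed far less. Its levels were −1.32, −1.41, −1.47 and −1.39 in granulocytes and −1.28, −1.02 and −1.34 in BES with PBS, and the groups overlapped. The difference of −0.18 ± 0.09 (adjusted p = 0.079) had a 95% interval of −0.39 to 0.02. On the IFNT arrays it was 0.14 (adjusted p = 0.074), and without BES PBS replicate 3 it was −0.25 (adjusted p = 0.041). It also passed with median scaling (−0.33, adjusted p = 0.0063) and with all 14 arrays in 1 fit (−0.18, adjusted p = 0.041). The probe of the unnamed locus, whose first 40 bases are the capitals of the CCNB2 probe, had −2.44, −2.45, −2.67 and −2.76 in granulocytes and −2.11, −1.91 and −2.25 in BES, a difference of −0.49 ± 0.12 (adjusted p = 0.00483). The probes thus differed in their call but both gave less than a 2-fold difference.

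The G1 and S phase genes split, with 2 higher and 2 lower in granulocytes. Cyclin D3 (CCND3), the G1 cyclin that activates CDK4 and CDK6, had 5.97, 5.86, 5.81 and 5.85 in granulocytes with PBS, against 0.22, 0.26 and 0.20 in BES. Its difference of 5.65 ± 0.06 (adjusted p = 2.74e-10) corresponds to a 50.2-fold higher signal and was the largest excess in granulocytes among the members. CDK4, the kinase partner of D-type cyclins, went the other way, with −1.93, −1.73, −1.62 and −1.75 in granulocytes against 1.16, 1.10 and 1.25 in BES, a 7.62-fold lower signal. Cyclin E2 (CCNE2), the activator of CDK2, was 1.76-fold higher in granulocytes, though quantile normalization left 0.51 of its log2 difference of 0.82. CDK2 was lower by 0.21 ± 0.07 on the log2 scale (adjusted p = 0.0223). That call was lost with normexp (−0.15, adjusted p = 0.071), without BES PBS replicate 1 (−0.20, 0.069), without BES PBS replicate 3 (−0.19, 0.070) and on the IFNT arrays (−0.06, 0.335).

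**Figure D2:**
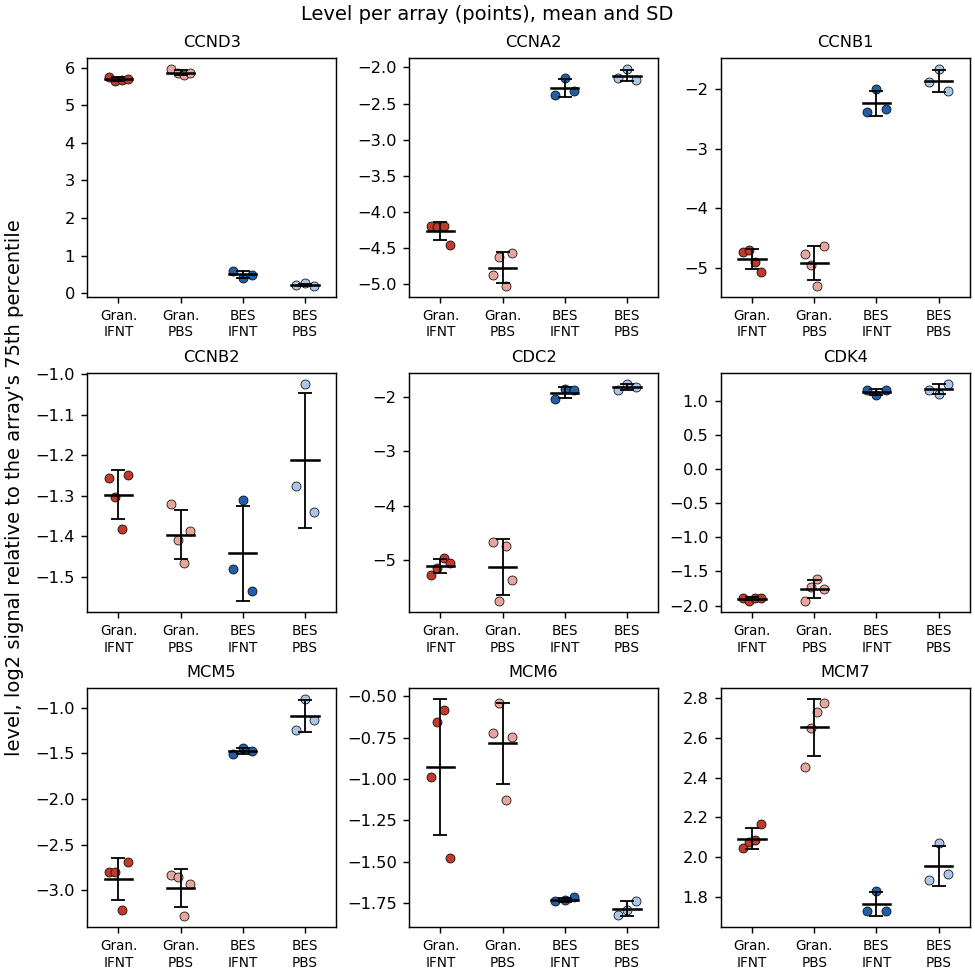
Level (log2 signal relative to the array's 75th percentile) of 9 members in granulocytes with IFNT, granulocytes with PBS, BES with IFNT and BES with PBS. Points are arrays and bars the mean and SD; the vertical scale differs between panels. Under PBS, CCND3, MCM6 and MCM7 are higher in granulocytes, CCNA2, CCNB1, CDC2, CDK4 and MCM5 lower, and CCNB2 overlaps.

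Of the other CDKs and CDK regulators, 3 were higher in granulocytes and 5 lower, and many of these genes work outside the cell cycle. CDK5R1, the p35 activator of CDK5 known from neurons, had 2.63, 2.58, 2.64 and 2.60 in granulocytes against −1.37, −1.47 and −1.46 in BES, a 16.5-fold higher signal (adjusted p = 5.2e-10). CDK5 itself moved the opposite way, with −0.73, −0.80, −0.83 and −0.76 against 1.91, 1.82 and 1.91, 6.30-fold lower. The regulator and its kinase thus lay on opposite sides between the cell types. CDK11 (CDK11B), a kinase of RNA processing, was 2.24-fold higher in granulocytes, and CDK7, which activates other CDKs and phosphorylates RNA polymerase II, 1.95-fold higher. CDK2AP1, a CDK2-binding protein, had −0.21, −0.13, −0.49 and −0.09 against 4.14, 4.26 and 4.07, and its 20.9-fold lower signal was the largest deficit in granulocytes among the members. CDK10 was 5.69-fold lower and CDK5RAP1, a mitochondrial tRNA-modifying enzyme, 3.51-fold lower. CDKN3 was 7.38-fold lower as fitted, but 3 of its 4 granulocyte PBS arrays were not well above background, and normexp left a log2 difference of −0.64 of the −2.88.

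Both subunits of the anaphase-promoting complex, the ubiquitin ligase that ends mitosis, were lower in granulocytes. CDC23 had −3.49, −3.40, −3.44 and −3.43 against −0.45, −0.47 and −0.53 in BES (7.77-fold lower), and CDC26 was 4.53-fold lower. Among CDC genes whose products work elsewhere, the kinase chaperone CDC37 was 2.80-fold lower and CDC10 (SEPTIN7), a septin, 2.03-fold lower. With normexp the log2 difference of CDC10 was −0.21 in place of −1.02. The splicing factor CDC40 was higher by 0.58 ± 0.08 on the log2 scale, and by 0.29 on the IFNT arrays. Of the 2 other genes with cyclin names, CCNG1, a cyclin known from the DNA damage response, was 2.71-fold lower, with a log2 difference of −2.24 by quantile normalization in place of −1.44. CCNB1IP1, a ubiquitin ligase of meiotic recombination, had a difference of −0.11 ± 0.20, which normexp turned to 0.65 and quantile normalization set at −0.56.

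Origin licensing and firing genes did not move as a unit, with 3 of the 6 tested higher in granulocytes, 2 lower and 1 not past the threshold. Within the MCM helicase the subunits went opposite ways. MCM5 had −2.84, −2.85, −3.28 and −2.92 in granulocytes against −1.24, −0.90 and −1.13 in BES, 3.68-fold lower (adjusted p = 4.22e-06). MCM6 had −0.72, −0.54, −1.13 and −0.75 against −1.82, −1.79 and −1.74, 2.00-fold higher (adjusted p = 0.000188). MCM7 had 2.45, 2.65, 2.73 and 2.77 against 1.88, 2.07 and 1.92, 1.62-fold higher (adjusted p = 0.000209). All granulocyte arrays lay on 1 side of all BES arrays for these 3 subunits, and their directions held with each background correction and scaling tried, although the log2 difference of MCM7 was 0.34 with quantile normalization and 0.33 on the IFNT arrays in place of 0.69. ORC6L (ORC6), an ORC subunit, was 1.38-fold lower, and ORC1L differed by 0.27 ± 0.13 (adjusted p = 0.088). The ORC1L difference passed with normexp (0.93), on the IFNT arrays (0.68) and without granulocyte PBS replicate 3 (0.38), and turned to −0.30 with quantile normalization (adjusted p = 0.040). CDC7, the kinase that fires origins, was 1.42-fold higher (adjusted p = 0.0319), but its groups overlapped, and the call was lost with median scaling (0.36, adjusted p = 0.111), with quantile normalization (0.14, 0.528) and without any 1 of BES PBS replicates 1 and 2 or granulocyte PBS replicates 1, 2 and 3 (0.38 to 0.54).

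Of 6 replicative polymerase and clamp loader genes, 4 were lower in granulocytes and 1 higher, where 44.7% of all probes were lower and 46.7% higher. POLA2, the regulatory subunit of the polymerase alpha and primase complex that starts each new strand, had −3.26, −3.24, −3.24 and −3.41 against −1.69, −1.47 and −1.72 in BES, 3.17-fold lower. POLD2, an accessory subunit of polymerase delta, was 2.79-fold lower, and POLE3, a small subunit of polymerase epsilon, 4.14-fold lower. POLD1, the catalytic subunit of polymerase delta, differed by −0.13 ± 0.07 (adjusted p = 0.125), with −0.28 and past the threshold under median scaling (adjusted p = 0.0042), 0.070 with normexp and 0.12 on the IFNT arrays. The 2 RFC subunits again split, as RFC3 was 4.57-fold lower and RFC5 3.53-fold higher, with −3.05, −3.38, −3.29 and −3.59 in granulocytes against −5.00, −5.17 and −5.26 in BES. On the IFNT arrays the log2 difference of POLA2 was −0.81 in place of −1.66.

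All 3 centromere proteins that could be tested were higher in granulocytes. CENP-A, the histone H3 variant that marks the centromere, had −3.03, −3.16, −3.09 and −3.15 in granulocytes against −5.63, −5.48 and −5.79 in BES, 5.76-fold higher (adjusted p = 4.5e-08). CENPH, a protein of the inner kinetochore, was 2.74-fold higher and CENPC1 (CENPC), which binds CENP-A nucleosomes, 1.54-fold higher. The groups were apart for all 3. On the IFNT arrays the log2 difference of CENPC1 was 0.35 in place of 0.62.

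With IFNT, 4 members rose and 8 fell in granulocytes among the 36 tested, and none of these 12 had overlapping groups. The largest rise was that of POLA2, at 1.62-fold, and the largest fall that of MCM7, at 1.47-fold, so no member changed 2-fold. Of all 10379 probes tested, 44.6% passed the threshold, 17.2% higher and 27.4% lower, and 43.6% had groups that did not overlap. The members' 12 of 36 is not above that share. Their median change was −0.03, against −0.05 for all probes. Treatment and array row coincided on the granulocyte slide, PBS in row 1 and IFNT in row 2, and cannot be told apart.

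**Figure D3:**
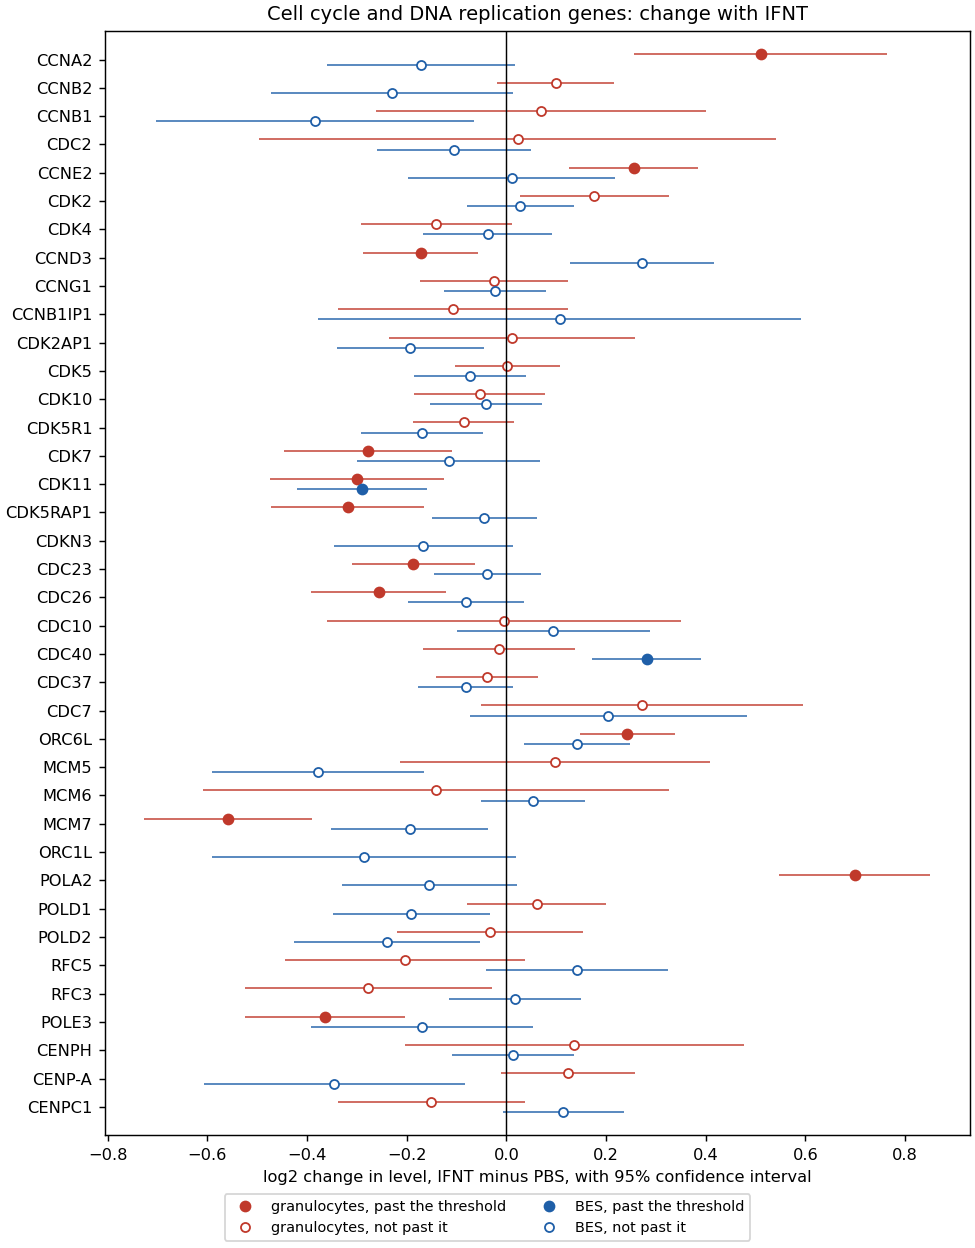
Change in level with IFNT (IFNT minus PBS, log2) for each tested member in granulocytes (red, 4 against 4 arrays) and in BES (blue, 3 against 3), grouped by role. Points are limma estimates with 95% confidence intervals, filled past the threshold: 12 are filled in granulocytes and 2 in BES, and POLA2 at 0.70 and MCM7 at −0.56 are the extremes.

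Among the rises, POLA2 had levels of −2.70, −2.51, −2.65 and −2.49 in granulocytes with IFNT, against −3.26, −3.24, −3.24 and −3.41 with PBS. Its change was 0.70 ± 0.07 (SE, adjusted p = 4.97e-05). All IFNT arrays lay above all PBS arrays by more than the spread within either group. Cyclin A2 had −4.19, −4.21, −4.19 and −4.45 with IFNT, against −4.87, −4.62, −5.02 and −4.57 with PBS, a change of 0.51 ± 0.11 (adjusted p = 0.00559). Replicate 4 with IFNT lay below the other 3, still above every PBS array, and normexp gave a change of 0.22. CCNE2 had −3.56, −3.58, −3.59 and −3.72 with IFNT against −3.98, −3.82, −3.82 and −3.85 with PBS (0.25 ± 0.06, adjusted p = 0.00617). ORC6L had −0.78, −0.71, −0.75 and −0.70 against −1.01, −0.96, −0.96 and −0.98 (0.24 ± 0.04, adjusted p = 0.00155). All 4 serve S phase entry or DNA replication, and so do MCM7 and POLE3, which fell. Summed marker levels also moved in part, being 2.51 to 2.62 with IFNT and 2.33 to 2.45 with PBS for the 3 B cell markers, 10.6 to 12.1 and 13.7 to 14.5 for the 2 eosinophil markers, 26.1 to 27.1 and 27.9 to 30.5 for the 4 monocyte markers, and 748.1 to 833 and 719 to 920 for the 8 neutrophil markers. Their part in these results was not tested.

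Among the falls, MCM7 had 2.04, 2.07, 2.09 and 2.17 with IFNT, against 2.45, 2.65, 2.73 and 2.77 with PBS. Its change of −0.56 ± 0.07 (adjusted p = 0.000342) was past the threshold under all 16 alternatives run. The other MCM subunits did not pass, with changes of 0.10 ± 0.14 for MCM5 and −0.14 ± 0.20 for MCM6. POLE3 had −1.61, −1.65, −1.87 and −1.83 with IFNT against −1.45, −1.32, −1.40 and −1.32 with PBS (−0.36 ± 0.07, adjusted p = 0.00296). Both anaphase-promoting complex subunits fell, CDC26 with −0.95, −0.90, −0.83 and −0.88 against −0.64, −0.65, −0.51 and −0.74 (−0.26 ± 0.06) and CDC23 with −3.55, −3.57, −3.73 and −3.67 against −3.49, −3.40, −3.44 and −3.43 (−0.19 ± 0.05). The groups were separate in each case, narrowly for CDC23. Of the other CDKs and CDK regulators, 3 of 7 fell: CDK5RAP1 by 0.32 ± 0.07, CDK11 by 0.30 ± 0.08 and CDK7 by 0.28 ± 0.07 on the log2 scale. CDK7 had −0.85, −0.61, −0.84 and −0.87 with IFNT against −0.49, −0.40, −0.56 and −0.60 with PBS, so its highest IFNT array reached the edge of the PBS arrays.

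Cyclin D3, the member with the largest excess in granulocytes over BES, fell slightly with IFNT. Its levels were 5.77, 5.66, 5.68 and 5.69 with IFNT against 5.97, 5.86, 5.81 and 5.85 with PBS, a change of −0.17 ± 0.05 (adjusted p = 0.0227). The CCND3 call was lost without the filter on dim probes (adjusted p = 0.051) and without granulocyte IFNT replicate 2 (−0.16, adjusted p = 0.062), 3 (−0.17, 0.059) or 4 (−0.17, 0.056). The CDC23 call was lost with normexp (−0.08, adjusted p = 0.174), with an intensity trend and robust prior (0.052), without granulocyte PBS replicate 2 (−0.17, 0.061) and without granulocyte IFNT replicates 3 (−0.15, 0.056) or 4 (−0.17, 0.059). CDC2 and CCNB1 did not pass the threshold, with changes of 0.02 ± 0.23 and 0.07 ± 0.14. The 95% interval of CDC2, −0.50 to 0.54, holds the changes seen for cyclin A2 and POLE3, and that of CCNB1, −0.26 to 0.40, holds neither. The remaining members that did not pass had estimates between −0.28 and 0.27.

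**Figure D4:**
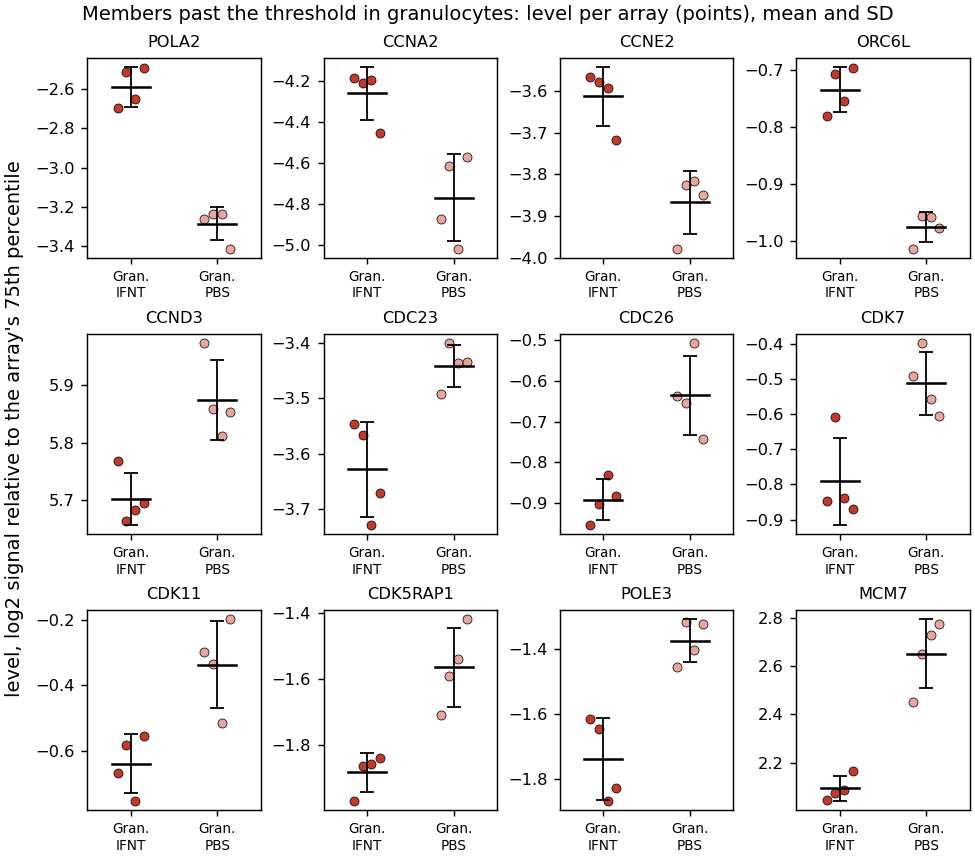
Level (log2 signal relative to the array's 75th percentile) of the 12 members past the threshold in granulocytes, with IFNT on the left and PBS on the right of each panel, ordered from the largest rise (POLA2) to the largest fall (MCM7). Points are arrays and bars the mean and SD (4 arrays each); the vertical scale differs between panels, and in none do the groups overlap.

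In BES, 1 of the 38 tested members rose with IFNT and 1 fell, where 3.66% of 11309 probes passed the threshold, 2.29% higher and 1.37% lower. The splicing factor CDC40 had −1.26, −1.25 and −1.19 with IFNT against −1.56, −1.51 and −1.48 with PBS, a change of 0.28 ± 0.05 (SE, n = 3 each, adjusted p = 0.0282). CDK11 had −1.71, −1.81 and −1.85 with IFNT against −1.55, −1.46 and −1.49 with PBS, a change of −0.29 ± 0.05 (adjusted p = 0.0435). CDK11 was the only member past the threshold in both cell types, falling in both. Neither the CDC40 nor the CDK11 call in BES was firm. Of the 6 settings that left out an array, CDC40 kept its call only without BES PBS replicate 3 (adjusted p from 0.039 to 0.110 over the 6), and CDK11 lost its call in all 6 (0.064 to 0.145). With the array row as a covariate the changes were of like size, 0.25 for CDC40 (adjusted p = 0.251) and −0.30 for CDK11 (adjusted p = 0.267), and neither passed. PBS replicates 1 and 2 lay in row 1 and the other 4 BES arrays in row 2. Why the calls were lost was not tested.

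Of the BES estimates 13 of 38 were above 0, against 4974 of 11309 for all probes, with a median of −0.08 against −0.02. The groups were apart for 16 of 38 members, against 33.5% of all probes. All 4 mitotic genes had estimates below 0, and none passed. Cyclin B1 had −2.38, −2.01 and −2.34 with IFNT against −1.88, −1.66 and −2.03 with PBS, a change of −0.38 ± 0.13 (adjusted p = 0.146), and the groups overlapped. CDC2 had −2.03, −1.86 and −1.87 against −1.87, −1.76 and −1.81, a change of −0.11 ± 0.06 (adjusted p = 0.341). MCM5 had −1.50, −1.44 and −1.47 against −1.24, −0.90 and −1.13, without overlap, a change of −0.38 ± 0.09 that missed the threshold (adjusted p = 0.0743) and passed it with normexp (0.036) and with an intensity trend and robust prior (0.019). MCM7 changed by −0.19 ± 0.07 (adjusted p = 0.142) and MCM6 by 0.05 ± 0.04 (adjusted p = 0.470). CCND3, at 0.60, 0.40 and 0.48 with IFNT against 0.22, 0.26 and 0.20 with PBS, had a change of 0.27 ± 0.06 (adjusted p = 0.0641), which passed with normexp (0.036), with an intensity trend and robust prior (0.015) and with all 14 arrays in 1 fit (0.021).

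The IFNT responses of the cell types were compared directly, as the change in granulocytes minus the change in BES. Of 38 members, 4 had a higher and 4 a lower response in granulocytes, where 26.5% of 12046 probes passed, 11.7% higher and 14.8% lower. POLA2 changed by 0.70 in granulocytes and −0.15 in BES, a difference of 0.85 ± 0.10 (adjusted p = 6.75e-05), and CCNA2 by 0.51 and −0.17, a difference of 0.68 ± 0.16 (adjusted p = 0.00662). Cyclin D3 differed the other way, at −0.17 in granulocytes and 0.27 in BES (−0.44 ± 0.08, adjusted p = 0.00107). For POLA2, CCNA2 and CCND3 the estimates in the cell types had opposite signs, but none of their BES changes passed the threshold. Their difference of responses stayed past the threshold under every alternative run. CENP-A differed by 0.47 ± 0.12 (adjusted p = 0.0140), with changes of 0.12 in granulocytes and −0.35 in BES that did not pass within either cell type. Normexp left 0.26 of that difference (adjusted p = 0.148).

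The other 4 differences were less firm. CCNB2 differed by 0.33 ± 0.11 (adjusted p = 0.0466), with changes of 0.10 in granulocytes and −0.23 in BES, and lost the call under 12 of 21 alternatives, 10 of them the omission of 1 array (adjusted p up to 0.118 there). CDK5RAP1 differed by −0.27 ± 0.09 (adjusted p = 0.0350) and lost it under 10 of 21, 8 of them the omission of 1 array. MCM7 fell more in granulocytes, at −0.56 against −0.19 in BES (−0.36 ± 0.11, adjusted p = 0.0240), but not without BES PBS replicate 1 (−0.33, adjusted p = 0.063), BES PBS replicate 3 (−0.34, 0.054) or BES IFNT replicate 2 (−0.33, 0.062). CDC40 differed by −0.30 ± 0.09 (adjusted p = 0.0251), but not without BES PBS replicate 1 (−0.28, 0.062) or BES IFNT replicate 3 (−0.28, 0.065). For CDC2 and CCNB1 the differences were 0.13 ± 0.30 and 0.45 ± 0.22 (adjusted p = 0.807 and 0.164). For MCM5 and MCM6 they were 0.48 ± 0.19 and −0.20 ± 0.26 (adjusted p = 0.0887 and 0.653), and that of MCM5 passed with normexp (0.42, adjusted p = 0.049) and without granulocyte IFNT replicate 3 (0.59, adjusted p = 0.0189).

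Genes of the same pathways outside the symbol rule were read from 5 lists, and a sixth held 15 genes of the same families that bear an older or different name in the files and were found through RefSeq, RRM1 and RRM2 among them. In granulocytes with IFNT, 3 of 5 tested E2F, Rb and MuvB regulators rose and 1 fell, 3 of 12 replication fork and licensing factors rose and 1 fell, 1 of 6 deoxynucleotide supply genes rose, 4 of 11 mitotic kinase, spindle and cytokinesis genes rose and 2 fell, 3 of 11 checkpoint and DNA damage genes rose and 3 fell, and 3 of 13 genes found through RefSeq rose and 2 fell. Of all probes, 17.2% rose and 27.4% fell, and with so few genes a list these counts are read as a description only. The list medians lay between −0.10 and 0.31, against −0.05 for all probes. Some of these genes changed far more than any member. CDKN2AIP, which binds the tumour suppressor ARF, was 6.43-fold higher with IFNT (2.68 ± 0.05, adjusted p = 3.2e-09), at 4.31 to 4.42 against 1.62 to 1.77. CHAF1A, the large subunit of the chromatin assembly factor that follows the replication fork, was 4.38-fold higher (2.13 ± 0.12), at 0.37 to 0.62 against −1.93 to −1.34. MYBL2, a transcription factor of S and G2 genes, was 3.77-fold higher (1.91 ± 0.08), at −1.88 to −1.70 against −3.86 to −3.52. RRM2, the regulated subunit of ribonucleotide reductase, was 2.03-fold higher (1.02 ± 0.05), at −1.60 to −1.43 against −2.58 to −2.49. In each of these 4 genes the arrays of the groups stood apart by more than the spread within them.

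RPA1, the large subunit of the single-strand DNA binding protein, rose by 1.57 ± 0.25 (adjusted p = 0.0009), although 1 PBS array was not well above background and normexp left 0.61. RB1, the G1 brake on E2F, and DCK, a kinase that salvages deoxynucleosides, each rose 1.75-fold, RB1 by 0.41 on the log2 scale with normexp in place of 0.81. The mitotic kinases AURKA and AURKB rose 1.32-fold and 1.31-fold, AURKB by 0.17 on the log2 scale with normexp in place of 0.38. The growth arrest gene GADD45B rose by 0.49 ± 0.05 and RFC1, the large clamp loader subunit, by 0.27 ± 0.04 on the log2 scale. PRIM2, a primase subunit, rose by 0.17 ± 0.06 (adjusted p = 0.048), a call lost under 11 of 16 alternatives, among them the omission of granulocyte PBS replicates 1, 2 or 4 or IFNT replicates 2, 3 or 4 (0.13 to 0.18). On the side of the falls, CDKN2D, an inhibitor of CDK4 and CDK6, fell by 0.54 ± 0.05 (adjusted p = 4.17e-05), NUSAP1, a spindle protein, by 0.38 ± 0.05, BTG1, an antiproliferative gene, by 0.29 ± 0.05, and ASF1A, a histone chaperone, by 0.28 ± 0.06. LIN37, a MuvB subunit, and KIF20A, a mitotic kinesin, fell by 0.28 and 0.26, and both calls were lost with normexp (−0.12, adjusted p = 0.144, and −0.13, adjusted p = 0.173), that of KIF20A also with all 14 arrays in 1 fit (adjusted p = 0.061). RRM1, the large subunit of ribonucleotide reductase, had a change of −0.04 ± 0.06 in granulocytes (adjusted p = 0.629) and −0.03 ± 0.05 in BES (adjusted p = 0.713), and RRM2 one of −0.34 ± 0.12 in BES (adjusted p = 0.157). Genes that restrain the cycle were thus found on both sides, with RB1 and GADD45B rising and CDKN2D and BTG1 falling. Among the members, genes of DNA replication were found on both sides.

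**Figure D5:**
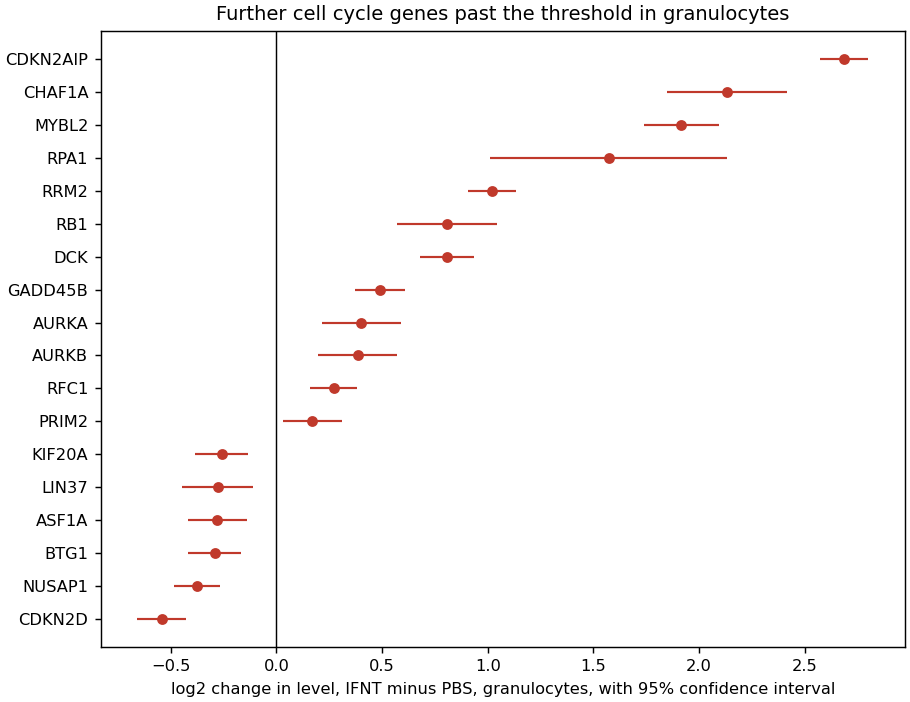
Change in level with IFNT in granulocytes (IFNT minus PBS, log2, 4 against 4 arrays) for the pathway list genes named in the text that passed the threshold. Points are limma estimates with 95% confidence intervals: CDKN2AIP at 2.68, CHAF1A at 2.13 and MYBL2 at 1.91 lead, and CDKN2D at −0.54 is the lowest.

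In BES these lists held 1 rise and 1 fall, where 3.66% of all probes passed the threshold. The rise was 1 of 15 tested genes found through RefSeq and the fall 1 of 13 checkpoint genes. None of 5 regulators, 12 fork factors, 6 nucleotide genes and 14 mitotic genes passed. CDKN2AIP rose 2.62-fold (1.39 ± 0.07, adjusted p = 0.000132), at −0.44 to −0.36 with IFNT against −1.89 to −1.65 with PBS. The fall was that of the growth arrest gene GADD45G, by 0.68 ± 0.10 on the log2 scale (adjusted p = 0.0211), a call that was lost without the filter on dim probes (adjusted p = 0.079), with the array row as a covariate (0.175), without BES PBS replicates 1 or 2 (0.077 and 0.058) and without BES IFNT replicates 1 or 3 (0.082 and 0.076). In the test of the difference between the responses, 2 of 5 regulators, 3 of 12 fork factors, 2 of 6 nucleotide genes, 4 of 14 mitotic genes, 3 of 13 checkpoint genes and 3 of 15 genes found through RefSeq had a higher response in granulocytes, and 0, 1, 0, 0, 1 and 1 a lower one, where 11.7% of all probes were higher and 14.8% lower. RRM2 was among them, with a difference of 1.36 ± 0.13 (adjusted p = 7.93e-06).

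Between the cell types under PBS, 10 of 13 checkpoint and DNA damage genes were higher in granulocytes and 3 lower, where 46.7% of all probes were higher and 44.7% lower. BTG1 was 166-fold and GADD45B 94.6-fold higher, and CDKN2D, from the genes found through RefSeq, 88.5-fold higher. Of 14 mitotic genes 8 were lower and 4 higher. SPC24 of the kinetochore was 12.5-fold lower, AURKB 11.4-fold lower and PTTG1 (securin) 7.15-fold lower, whereas NUSAP1 was 16.4-fold higher. Deoxynucleotide genes split into 2 higher and 4 lower: DCK was 57.7-fold and SAMHD1, which degrades deoxynucleotides, 15.6-fold higher, and TYMS, which makes thymidylate, 9.38-fold lower. Both ribonucleotide reductase genes were lower, RRM1 3.92-fold (−1.97 ± 0.06) and RRM2 by 1.03 ± 0.10 on the log2 scale. MYBL2 was 4.17-fold lower on the PBS arrays, but on the IFNT arrays its difference was 0.29 (adjusted p = 0.018). Of the other lists, 1 of 5 regulators was higher and 2 lower, 3 of 12 fork factors higher and 7 lower, and 6 of 15 genes found through RefSeq higher and 9 lower. These cell type differences share their PBS arrays with both IFNT comparisons, so a gene's values in them are not independent.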

How the data were processed

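The 14 samples were hybridised as 1 array each, in 1 colour (Cy3), on 1 custom bovine design with 15208 non-control probes and 536 control spots. Per the file headers the authors' scanner files give intensity per spot, background-corrected and spatially detrended by the scanner software but not normalized between arrays; the submitters' processing notes name Agilent Feature Extraction 9.5. The authors' deposited values were log2 processed signal minus 1 constant per array, as set against the scanner files, and served as an alternative. Extraction with TRIzol is described for granulocytes only, per the labels. The genome build is not given in the sources used here, so no coordinates are printed.

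Levels were log2 processed signal minus the array's 75th percentile over non-control probes, without spots marked as outliers. Probes were tested where well above background on at least 3 of 6 BES arrays, 4 of 8 granulocyte arrays, either of these for the difference of responses, or 3 of 7 PBS arrays for the cell types. Each comparison was fitted with limma 3.58.1 (lmFit and eBayes, R 4.3.3), two-sided, with Benjamini-Hochberg adjustment over all probes tested and a threshold of 0.05; intervals are at 95%. The script was tested on simulated data. Tables and plots used Python 3.11.15, pandas 2.3.3, numpy 2.4.6 and matplotlib 3.10.9. The number of arrays limits the precision.

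Alternatives were normexp background correction (offset 50), quantile and median normalization, the authors' deposited values, no filter, an intensity trend with robust prior, all 14 arrays in 1 fit, the array row as covariate, the replicate number as block, IFNT arrays for the cell types and the omission of each array. Symbols are those of the files; of the 41 members 40 had a RefSeq symbol (assembly not matched to the files), 7 of them unlike the files', 15 are described in the files as similar to a human gene, and 10 were named from the description. Members and lists were chosen with earlier results of these data known, and the genes named through RefSeq after the files were seen. The text names members past the threshold, up to 12 in each direction (6 for the difference of responses), CCND3, CCNB1, CDC2, RRM1, RRM2 and the MCM genes always, and up to 4 genes per further list by smallest p; other members are named to complete their role.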

Additional observations from a re-analysis of the deposited data

Results flagged for a closer look

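Of 124 granulocyte groups of 4 arrays checked, 4 held an array whose gap to the nearest other array exceeded Dixon's 95% critical share of the group's range; chance alone gives about 1 in 20 groups, and the BES groups of 3 were not checked. CCNA2 was at −4.45 in granulocyte IFNT replicate 4, with the other 3 arrays between −4.21 and −4.19. CDK7 was at −0.61 in granulocyte IFNT replicate 2, with the others between −0.87 and −0.84. POLA2 was at −3.41 in granulocyte PBS replicate 4, with the others between −3.26 and −3.24. CHAF1A was at 0.37 in granulocyte IFNT replicate 3, with the others between 0.61 and 0.62. All 4 spots were well above background, and the CCNA2, CDK7, POLA2 and CHAF1A changes with IFNT stayed past the threshold without the array in question.

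The response to IFNT differed between granulocytes and BES, by the test of the difference itself (limma, adjusted p under 0.05), for 8 members. On the log2 scale the difference, granulocytes minus BES, was 0.85 for POLA2, 0.68 for CCNA2, 0.47 for CENP-A and 0.33 for CCNB2, and −0.44 for CCND3, −0.36 for MCM7, −0.30 for CDC40 and −0.27 for CDK5RAP1.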

How the results depend on the processing

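The BES calls depended most on the settings. The 414 BES probes past the threshold became 189 without the filter on dim probes, 1011 with the intensity trend and robust prior, 149 with the array row as covariate and 199 to 625 without 1 array (625 without BES PBS replicate 3, 199 without BES IFNT replicate 3). They split into 259 higher and 155 lower, against 294 and 322 with normexp and 248 and 222 with median scaling. BES members that rose numbered 1, but 2 with normexp, the trend or all 14 arrays, 0 without the filter, with the replicate block or with the array row, and 0 to 2 without 1 array. BES members that fell numbered 1, but 2 with normexp, 3 with the trend, 0 without the filter, with all 14 arrays, with the replicate block or with the array row, and 0 to 0 without 1 array. For the difference of responses, members lower in granulocytes numbered 4, and 1 to 5 without 1 array. Same-numbered IFNT and PBS arrays deviated from their group means with r of 0.05, 0.06 and −0.01 in BES and 0.14, 0.18, 0.20 and −0.12 in granulocytes, so the numbers were not taken to pair samples, and not every array correlated best with its own number. With the replicate number as a block, 318 BES and 4674 granulocyte probes passed, and members with a higher or lower difference of responses became 8 and 6 in place of 4 and 4, MCM5 among them (0.48, adjusted p = 0.010); between the cell types CDK2 lost its call (−0.16, adjusted p = 0.055), and in BES CDC40 (0.062) and CDK11 (0.095). Estimates near 0 changed sign. In granulocytes these were CCNB1 (−0.058 to 0.16 without 1 array, lowest without PBS replicate 3), CDC2 (−0.045 with quantile normalization, −0.18 to 0.17 without 1 array), MCM5 (−0.0046 to 0.21, lowest without PBS replicate 3) and MCM6 (−0.26 to 0.043, highest without IFNT replicate 4). In the difference of responses it was CDC2 (−0.078 to 0.28 without 1 array, lowest without granulocyte PBS replicate 2). Between the cell types they were CCNB2 (0.14 on IFNT arrays), CCNB1IP1 (0.65 with normexp, and −0.27 to 0.13 without 1 array, highest without BES PBS replicate 3), ORC1L (−0.30 with quantile normalization) and POLD1 (0.070 with normexp, 0.12 on IFNT arrays). MYBL2 was not near 0, with −2.06 on PBS arrays and 0.29 on IFNT arrays, past the threshold on both. A difference on IFNT arrays includes the changes with IFNT in both cell types. MYBL2 rose by 1.91 with IFNT in granulocytes and had an estimate of −0.44 in BES, which did not pass the threshold. The cause of the sign changes under the other settings was not tested. Each member had 1 probe, so a median over probes was not run as an alternative. CDKN3 and ORC1L are limited by signal near background in granulocytes.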
